A study of Mus musculus with 4 samples.

Results

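In liver taken after partial hepatectomy (PHx), 1339 acetylated regions that lay over 3000 bp from the nearest transcription start site (TSS) in sham liver each overlapped a single region that was annotated as promoter. They are called absorbed regions here, and a PHx region is said to hold a sham region when they share at least 1 bp, which need not be its whole length. H3K27 acetylation (H3K27ac) was mapped in liver of C57/BL6J mice by CUT&Tag, in which a transposase tethered to an antibody inserts sequencing adaptors next to the mark. The PHx group had 2 libraries, taken 12 h after 70% of the liver was removed, and the sham group had 2 libraries from mice operated on without resection. No time is labelled for sham and the design text speaks of 0 h, so surgery, time since surgery and time of day cannot be told apart. The labels do not say whether the libraries of a group came from separate animals, and no allele or drug was part of either group. The authors deposited 1 merged list of regions per group on GRCm39, with 10170 regions after PHx and 11602 in sham, 21772 in all. The lists hold positions and no signal or counts, so the depth is unknown, replicate error cannot be given for any value and no test was made. Shares carry exact Clopper-Pearson 95% intervals, which take in counting error only, as regions are no replicates of a condition.

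A sham region belongs to the absorbed set when its distance to the nearest TSS in the sham table was over 3000 bp, when it overlapped exactly 1 PHx region, and when the PHx table annotated that region as promoter. The set was thus chosen by region position and annotation in both lists, and its size is a description. It held 1339 of 3738 distal sham regions, or 35.8% (34.3 to 37.4%), and 44.3% (42.5 to 46.1%) of the 3023 that overlapped exactly 1 PHx region. Of the rest, 1684 overlapped 1 PHx region that was no promoter region, 695 overlapped none and 20 overlapped several. The PHx regions that took up the set numbered 1104 of 7665 PHx promoter regions, or 14.4% (13.6 to 15.2%). Most of them, 1030, were annotated within 1 kb of a TSS, and for 1229 of the 1339 absorbed regions the PHx region covered the TSS of its named gene. As a check of the labelled tissue, a region covered the TSS of 5 of 6 hepatocyte markers after PHx and of 5 of 6 in sham. The other marker, Serpina1a, had no listed TSS. In either list a region covered the TSS of 0 of 4 genes of brain, heart, pancreas and lung, 3 of which had no listed TSS. A TSS is listed only where a region was named for it, so the negative side rests on Snap25 alone.

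Acetylation of lysine 27 of histone H3 is laid down by the coactivators p300 and CBP and marks promoters and enhancers that are in use. Strongly transcribed genes often carry it in a broad block that runs from the promoter over the start of the gene body, and neighbouring enhancers of cell identity genes can form long clusters of marked chromatin. Partial hepatectomy starts growth of the remaining lobes, with cytokine and growth factor signals that reach hepatocytes within hours, while the organ keeps up its metabolic work. Liver is a mixture of hepatocytes, endothelial cells, Kupffer cells, stellate cells and bile duct cells, and in such bulk tissue fewer cells of a type and less mark per cell cannot be told apart.

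The promoters below belong to genes whose start was joined, after PHx, to distal regions among the farthest away in the gene lists used here. These promoters are shown so that sequence close to the joined start can be seen, which need not lie at an end of the block. They are the RefSeq promoters of Ppara (GRCm38.p6, chr15:85735526-85735825, plus strand), the nuclear receptor that drives fatty acid oxidation, and Jak1 (chr4:101265174-101265473, minus strand), the kinase that carries signals of interleukin-6 family cytokines. The others are those of Elovl6 (chr3:129532136-129532435, plus strand), a fatty acid elongase, Irs2 (chr8:11008880-11009179, minus strand), an adaptor of the insulin receptor, and Zfp36l1 (chr12:80112964-80113263, minus strand), an mRNA decay factor. Each runs from 250 bases before to 50 bases after the RefSeq start. Their build differs from that of the tables, and each start lay within 1000 bp of the start listed there, measured from the 3' end of the gene within each build.
Ppara: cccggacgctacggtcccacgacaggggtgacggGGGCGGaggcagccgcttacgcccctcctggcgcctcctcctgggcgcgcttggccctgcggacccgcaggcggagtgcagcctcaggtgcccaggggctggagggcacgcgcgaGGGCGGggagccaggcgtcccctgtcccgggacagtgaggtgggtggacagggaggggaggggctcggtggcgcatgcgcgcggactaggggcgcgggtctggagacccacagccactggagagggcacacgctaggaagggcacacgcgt
Jak1: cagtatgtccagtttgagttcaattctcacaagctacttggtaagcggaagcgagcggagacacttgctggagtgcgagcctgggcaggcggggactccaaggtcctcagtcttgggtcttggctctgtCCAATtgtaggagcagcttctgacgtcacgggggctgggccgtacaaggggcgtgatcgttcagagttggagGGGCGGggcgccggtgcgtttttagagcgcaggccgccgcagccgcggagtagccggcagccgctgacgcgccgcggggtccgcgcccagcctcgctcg
Elovl6: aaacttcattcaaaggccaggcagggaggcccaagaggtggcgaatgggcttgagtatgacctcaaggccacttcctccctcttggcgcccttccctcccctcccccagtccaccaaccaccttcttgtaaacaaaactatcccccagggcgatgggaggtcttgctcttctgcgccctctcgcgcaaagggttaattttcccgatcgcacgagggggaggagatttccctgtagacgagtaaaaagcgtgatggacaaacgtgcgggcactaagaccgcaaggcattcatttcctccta
Irs2: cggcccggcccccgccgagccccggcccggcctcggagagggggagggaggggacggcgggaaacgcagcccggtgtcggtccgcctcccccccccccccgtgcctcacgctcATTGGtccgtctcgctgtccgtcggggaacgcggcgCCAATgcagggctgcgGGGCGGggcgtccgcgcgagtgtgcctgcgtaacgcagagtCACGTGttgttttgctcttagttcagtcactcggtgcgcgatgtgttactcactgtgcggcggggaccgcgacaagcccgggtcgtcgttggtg
Zfp36l1: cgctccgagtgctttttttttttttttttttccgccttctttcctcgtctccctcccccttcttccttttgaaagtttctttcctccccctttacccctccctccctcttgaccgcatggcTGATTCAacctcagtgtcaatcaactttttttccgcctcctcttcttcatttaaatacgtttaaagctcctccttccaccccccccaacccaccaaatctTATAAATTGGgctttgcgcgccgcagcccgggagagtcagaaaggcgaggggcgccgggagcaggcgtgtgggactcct
Capitals mark matches on either strand to 6 motifs, namely TATAAA for the TATA box, CCAAT for the box of that name, GGGCGG for the GC box, TGANTCA for AP-1, TTCCNGGAA for STAT factors and CACGTG for the E-box. Ppara had 2 GC boxes in a stretch of 74.7% GC. Jak1 had a CCAAT box and a GC box. Irs2 had 2 CCAAT boxes, a GC box and an E-box. Zfp36l1 had an AP-1 match and a TATA box that shares 1 base with a CCAAT box on the other strand. Elovl6 had none of the 6. Over all 27025 RefSeq promoters the shares with a match were 14.2% for TATAAA, 37.9% for CCAAT, 35.9% for GGGCGG, 7.93% for TGANTCA, 1.15% for TTCCNGGAA and 7.24% for CACGTG. A match is a string of letters and no evidence of a bound factor.

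Absorption ran almost wholly in the direction of PHx promoters taking up sham distal regions. With the tables exchanged, 27 of 2505 distal PHx regions, or 1.08% (0.711 to 1.56%), overlapped exactly 1 sham region that was a promoter region. PHx regions were wider by their median, and this moved with the result. The absorbing PHx regions had a median width of 33123.5 bp (quartiles 21702.2 and 47431.5 bp), against 13740 bp (9607 and 21496 bp) for the other PHx promoter regions. A wide region meets more distal regions, so this gap in width is partly set by the rule. When every PHx region was narrowed about its middle by the ratio of the median widths, 0.560, 649 sham distal regions were still absorbed, by 590 PHx promoter regions. The part of width in the remainder was not tested. The absorbing regions made up 21.9% of the length of the PHx list, and the absorbed regions 39.1% of the distal length of the sham list.

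The share absorbed fell with distance to the TSS. Of the sham distal regions 3000 to 5000 bp from their nearest TSS, 68.7% (292 of 425) were absorbed. The share was 56.0% (510 of 911) up to 10000 bp, 34.0% (372 of 1095) up to 20000 bp, 16.0% (159 of 994) up to 50000 bp and 1.92% (6 of 313) beyond. In the same distance classes, sham promoter regions took up 7.21% (15 of 208), 1.65% (9 of 547), 0.289% (2 of 693), 0.131% (1 of 765) and 0 of 292 PHx distal regions, the last allowing up to 1.26%. At each distance the PHx promoters therefore held the larger share. The gap between neighbouring regions behaved likewise. Among sham promoter regions with a distal neighbour no more than 1000 bp away, 137 of 155 pairs (88.4%) overlapped the same PHx region, and among those 5000 to 10000 bp apart 208 of 497 (41.9%). PHx pairs of promoter and distal neighbours overlapped the same sham region in 9 of 45 (20%) and 3 of 371 (0.809%) cases at those gaps. Over all gaps the counts were 973 of 4611 sham pairs (21.1%) and 28 of 3452 PHx pairs (0.811%).

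**Figure D1:**
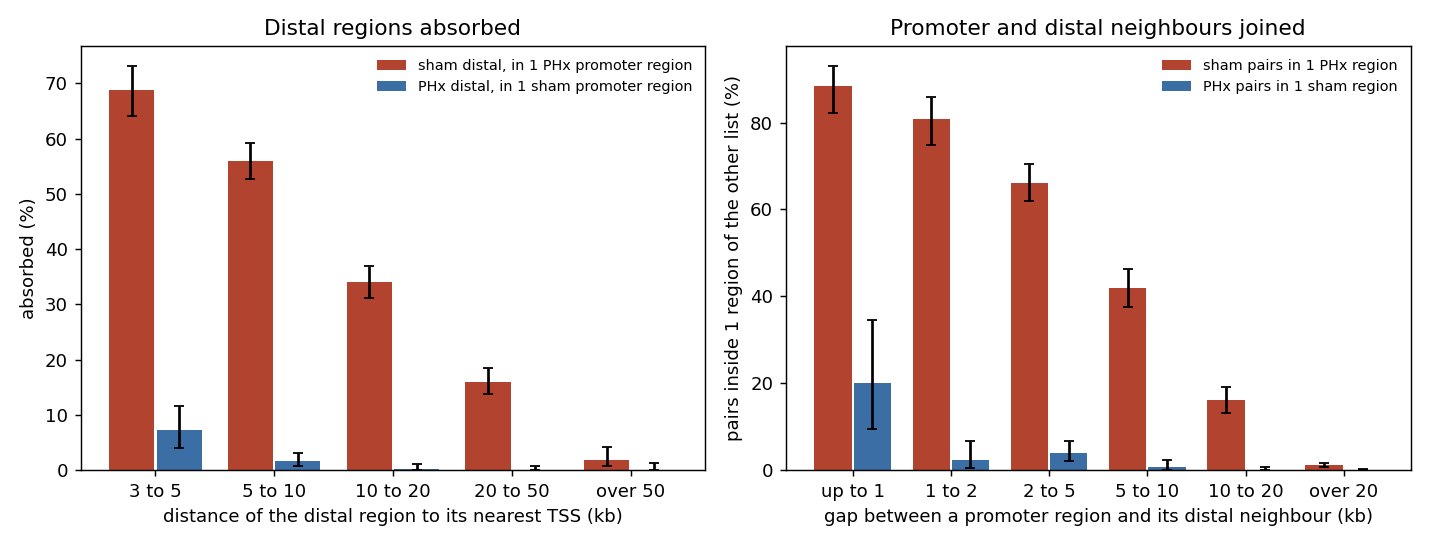
Share of distal regions absorbed into a promoter region of the other list by distance to the nearest TSS (left), and share of neighbouring promoter and distal regions that overlapped the same region of the other list by the gap between them (right), in percent with exact 95% intervals. Red bars are sham regions in PHx regions and blue bars PHx regions in sham regions. The red bars fall with distance, from 68.7% to 1.92% on the left, and stand above the blue bars in every class.

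Absorbed regions lay mostly in genes. The sham table put 440 (32.9%) in introns, 301 (22.5%) in exons, 225 (16.8%) in distal intergenic sequence, 210 (15.7%) in a 3' UTR, 137 (10.2%) in a 5' UTR and 26 (1.94%) just downstream of a gene. Intergenic regions were the class least often absorbed, with 26.9% of 836, against 36.5% of 1206 intronic, 40.2% of 523 3' UTR and 51.1% of 268 5' UTR regions. In the sham distal regions that stayed within a PHx region that was no promoter region, 25.8% were intergenic and 5.23% were in a 5' UTR. The classes also differ in distance to a TSS, and the share was not compared within distance. A position downstream of the TSS, on the side of the gene body, was found for 792 of 1339 absorbed regions (59.1%, 56.5 to 61.8%), and 560 (41.8%) overlapped the transcript of the gene named for the PHx region. Absorbed regions were of ordinary width in sham. Their median was 8302 bp (quartiles 6211 and 11676 bp), against 8018.5 bp for those that stayed distal and 6287 bp for those with no PHx region. The PHx region was a median 4.08 times as wide as the sham region it held, and 1.75 times where the region stayed distal. Of the absorbed regions 1119 (83.6%) lay in the PHx region over their whole length.

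The distance bridged is taken from the edge of the absorbed region nearest the TSS to the TSS of the gene named for the PHx region. Its median was 11033 bp, with quartiles of 6684 and 20152.5 bp and a range of 3029 to 178161 bp. From the TSS named in sham the same regions lay a median of 8407 bp and at most 57011 bp away. The distance bridged thus depends on which gene was named for the PHx region. The longest distance bridged belonged to the widest PHx region, of 257769 bp, which was named for the predicted gene A630001O12Rik. It reached a sham region 178161 bp away that was named for Irf2bp2, and was merged from 3 peaks of PHx library 1 and 7 of library 2. Predicted genes aside, the longest was at Aopep, an aminopeptidase gene, where the PHx region (chr13:63370822-63482801, 111980 bp) reached an exonic sham region 79770 bp downstream of the TSS. At Cyp17a1, the steroid 17-hydroxylase, the PHx region of 89254 bp reached 77981 bp downstream to a sham region of 3' UTR class that the sham table named for Wbp1l. The Wbp1l TSS, 4087 bp from that sham region, lay in the same PHx region. The gap between that sham region and the next one towards Cyp17a1 was 197 bp, and 90.0% of the stretch to the TSS (70202 bp) was in sham regions.

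The other bridges among the 10 longest, predicted genes aside, were as follows. Rreb1, a zinc finger factor downstream of Ras, had a PHx region of 99464 bp that reached 76217 bp into the gene. The sham region there lay 13119 bp from another Rreb1 TSS, which the PHx region covered too. Jmjd1c, a member of the histone demethylase family, had one of 119272 bp that reached 67485 bp upstream. Dlc1, which encodes a GTPase-activating protein, had one of 101121 bp that reached 63522 bp downstream. Cpeb4, a regulator of mRNA polyadenylation, had 2 absorbed regions 66229 and 58067 bp upstream in a PHx region of 78704 bp. Ankrd11, a chromatin cofactor, and Abhd6, a monoacylglycerol lipase, were reached from 58276 and 57043 bp. The region named for Mir6933 (60760 bp) is the one that covers Socs3, described further on. All 10 of these had a sham promoter region inside the same PHx region. Both PHx libraries had several peaks at Jmjd1c (2 and 3 for libraries 1 and 2), Dlc1 (3 and 4) and Cpeb4 (2 and 3). Library 2 alone had several at Cyp17a1, Rreb1, Ankrd11 and Abhd6 (4 each) and Mir6933 (3), and library 1 alone at Aopep (2).

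A single absorbed region was held by 915 of the 1104 PHx regions, 2 by 155, 3 by 25, 4 by 6 and 5 by 3. Slc22a23, an organic ion transporter gene, held 5 in a PHx region of 76830 bp (chr13:34405146-34481975). They lay 15424 and 30576 bp downstream and 9138, 18775 and 39688 bp upstream of the TSS, with sham gaps of 299 to 4907 bp, and no peak of either sham library went unused in those gaps. The farthest upstream met the PHx region at its edge, with 7.57% of its 12787 bp inside, so that the block itself did not run over it. Hipk2, a nuclear kinase of the stress response, held 4 in 101478 bp, from 6838 bp upstream to 42047 bp downstream, 1 of them named for Tbxas1 in the sham table. Daam1, a formin of the Wnt planar polarity pathway, held 3 in 104439 bp, at 24682, 44699 and 55751 bp downstream. Jmjd1c and Dlc1 also held 3 each. These PHx blocks stood where sham listed several separate regions, on both sides of the TSS at Slc22a23 and Hipk2 and on 1 side at Daam1. PHx library 1 had 1 peak and library 2 had 3 at Slc22a23 and 4 at Hipk2, and each library had 2 at Daam1.

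Among the widest absorbed regions were those at Galnt2 (43715 bp), a mucin-type glycosyltransferase, Myo10 (35098 bp), an unconventional myosin, Dapk2 (32990 bp), a calmodulin-regulated kinase, and Nr5a2 (31810 bp), the nuclear receptor LRH-1. The sham gap to the next region towards the TSS was 544 bp at Galnt2, 783 bp at Myo10, 737 bp at Dapk2 and 3500 bp at Nr5a2. The narrowest were at Cpeb4 (2508 bp), Vgll4 (2753 bp), Bnip3 (2874 bp), Slc10a1 (2917 bp) and Gc (2948 bp). Slc10a1 encodes the bile acid transporter NTCP and Gc the vitamin D binding protein, and in both the absorbed region lay upstream, at 6404 and 8723 bp. At the threshold of 3000 bp, the nearest regions inside the set lay 3029 bp (Ralgds), 3045 bp (Fcer1g, in the PHx region of Adamts4) and 3056 bp (Plppr1) from a sham TSS. The nearest outside it, which met the rest of the rule, lay 2977 bp (Oxtr), 2970 bp (Col5a3) and 2926 bp (Crk) away.

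The tables named the same gene for 892 of 1339 absorbed regions (66.6%, 64.0 to 69.1%) and the same transcript for 613. Agreement was 92.9% (91.5 to 94.1%) for the 1684 sham distal regions that stayed distal and 83.9% (83.1 to 84.8%) for the 6850 sham promoter regions within 1 PHx promoter region. The classes of agreement differed in distance. The bridged distance had a median of 8310 bp for the same transcript, 10943 bp for another transcript of the same gene (n = 279) and 18649 bp for a different gene (n = 447). In the 447 regions with a different gene, the PHx region also covered the TSS of the gene named in sham in 279 (62.4%), and lay over 3000 bp from it in 145 (32.4%). In most cases of a changed name the wide PHx region thus covered both starts. Regions that kept their gene were downstream of its TSS in 586 of 892 cases (65.7%), and those that changed it in 206 of 447 (46.1%). Examples of a changed name over a long distance were Aopep for Mir3074-1, Cyp17a1 for Wbp1l, Jmjd1c for Gm31763, Cpeb4 for D630024D03Rik and Dlc1 for LOC118567566. The longest with the name kept were Rreb1 (76217 bp), Ankrd11 (58276 bp), Insr (57011 bp), Daam1 (55751 bp) and Zfhx3 (53222 bp), a homeobox factor. The 27 regions of the exchanged rule kept their gene in 23 cases (85.2%).

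**Figure D2:**
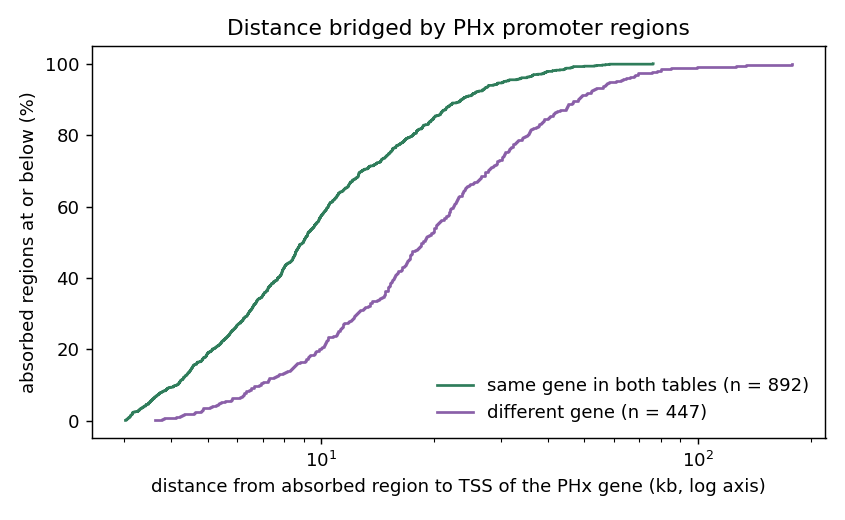
Cumulative share of absorbed regions (percent) by distance from the region to the TSS of the gene named after PHx (kb, log axis), for 892 regions with the same gene in both tables and 447 with a different gene. The curve for the same gene lies to the left, with a median of 8986.5 bp against 18649 bp.

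For most absorbed regions the promoter itself was already in the sham list. The PHx region also held a sham promoter region for 1046 of 1339 (78.1%, 75.8 to 80.3%), and a sham region covered the very TSS named after PHx for 906 (67.7%). Of the stretch from the absorbed region to the TSS, a median of 53.0% (quartiles 11.8 and 77.5%) was in sham regions, and 66.7% where sham covered the TSS. The length outside sham regions had a median of 4992 bp (quartiles 2631 and 9298.5 bp).

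The gaps between separate sham regions in such a block were short. For 1061 of 1339, the same PHx region held another sham region on the TSS side of the absorbed region. The nearest of these was a promoter region in 863, and it could lie before, over or beyond the TSS. The gap to it had a median of 3379 bp (quartiles 1615 and 6817 bp, range 8 to 41532 bp), with 146 of up to 1000 bp and 144 of over 10000 bp. A gap that spans the TSS can count for 2 absorbed regions, as at Tns1 (37722 bp). Peaks are numbered in genomic order in each library, so a missing number shows a peak of 1 library that the merged list left out, called unused here. In 935 of the 1061 gaps (88.1%, 86.0 to 90.0%) neither sham library had an unused peak. Library 1 had one in 52, library 2 in 81, and both in 7. Gaps without an unused peak had a median of 2916 bp and the 126 with one of 13047 bp. The smallest gap between neighbours anywhere was 2 bp in the PHx list and 4 bp in the sham list.

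The TSS named after PHx lay in no sham region for 433 absorbed regions, and the nearest sham region had a median distance of 5453 bp. The stretch between the sham regions on either side of such a TSS could be measured for 371 PHx regions. It had a median of 45353 bp, and in 126 of 371 (34.0%) no peak of either sham library went unused there. Library 1 had an unused peak in 167 and library 2 in 157. At most of these promoters, then, at least 1 sham library had a peak somewhere in the stretch. The positions of these peaks are not given, so it is not known whether any lay at the TSS. Absence from the merged list does not by itself show absence of acetylation.

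The libraries of the PHx group differed in how many peaks they had in these blocks. Of the 1104 absorbing regions, 502 (45.5%) were made of 1 peak of each library. In 422 (38.2%) library 1 had 1 peak and library 2 had several, in 93 (8.42%) the reverse, and in 87 (7.88%) both had several. Among the other 6561 PHx promoter regions 87.8% were made of 1 peak of each library and 9.27% had several in library 2 alone. The difference goes with width, which the rule selects. Counting by absorbed region, 1077 were held by PHx regions with 1 peak of library 1, 646 by those with 1 peak of library 2, and 530 (39.6%) by those with 1 peak of each. The lists give no positions of these peaks, so it is not known that a library's peak ran over the whole block. For the other absorbed regions at least 1 library had several peaks in the merged region.

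**Figure D3:**
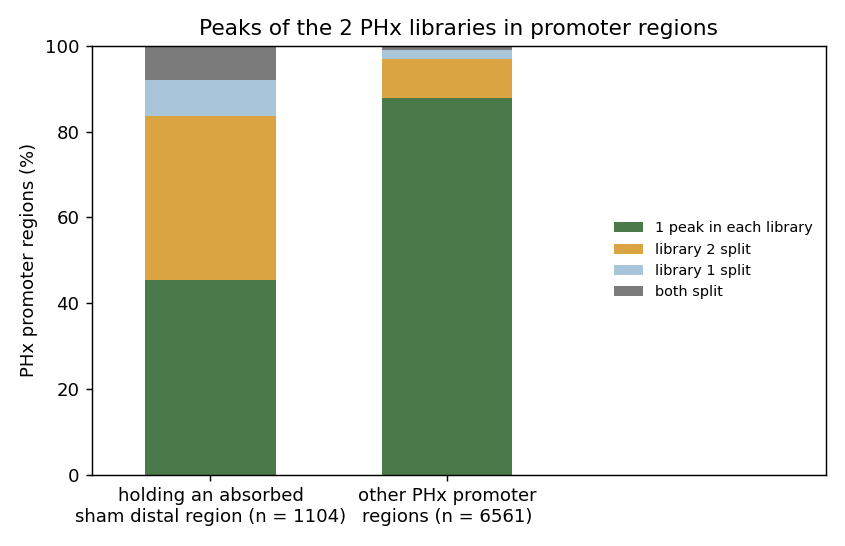
Percent of PHx promoter regions by the number of peaks in PHx library 1 and library 2, for the 1104 regions that held an absorbed region (left) and the other 6561 (right). The share with 1 peak in each library was 45.5% on the left and 87.8% on the right, and several peaks in library 2 alone made up 38.2% and 9.27%.

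Genes reached were counted by any TSS listed in either table inside an absorbing PHx region, since the tables name 1 gene per region. Of 8352 genes with a TSS in a PHx promoter region, 1358 were reached, or 16.3%, and this is the share against which each list below is read. Over all reached genes the longest distance had a median of 11912 bp and the PHx region a median width of 39000 bp. Across the lists, the interval lay above 16.3% for the growth factor genes and for the 5 hepatocyte markers. It included 16.3% for every other list with at least 2 genes. The rule already selects wide regions, lists share genes and regions, and no test was made, so nothing is called particular to a list. In the sentences that follow, the distance is from the farthest absorbed region to the nearest listed TSS of the gene.

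**Figure D4:**
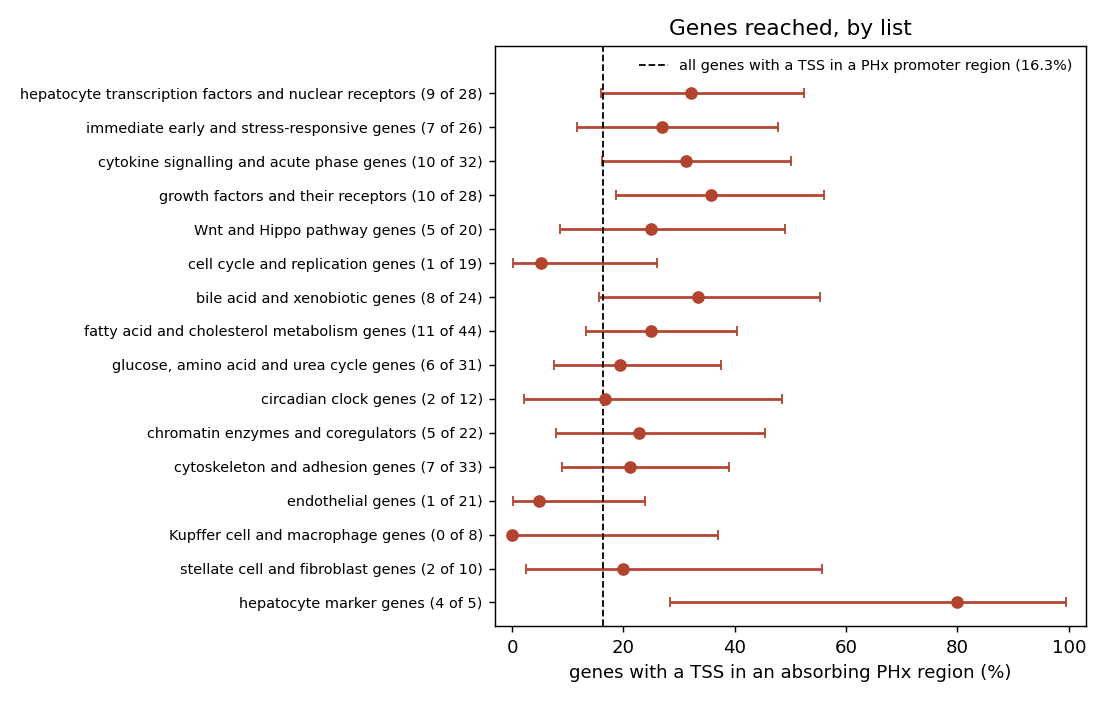
Percent of the genes of each list that had a TSS in a PHx region holding an absorbed sham region, with exact 95% intervals and counts in brackets. The dashed line is the share over all genes with a TSS in a PHx promoter region, 16.3%. Growth factor genes (10 of 28) and hepatocyte markers (4 of 5) lie to the right with their whole interval, and cell cycle (1 of 19) and endothelial genes (1 of 21) have points to the left.

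Hepatocyte transcription factors and nuclear receptors were reached in 9 of 28 cases (32.1%, 15.9 to 52.4%). At Ppara the PHx region (chr15:85515675-85646576) measured 130902 bp and the sham region over the TSS 25724 bp. The farther of 2 absorbed regions, 9588 bp wide and named for Wnt7b, lay 92403 bp upstream, and 5 sham regions together lay in the PHx block. That block was merged from 1 peak of PHx library 1 and 6 peaks of library 2. Hnf4a, the central factor of hepatocyte identity, had a PHx region of 85422 bp and a sham region of 35346 bp at the TSS, with a region of 10782 bp absorbed from 20105 bp downstream, and both PHx libraries had 1 peak there. Nr3c1, the glucocorticoid receptor, was reached from 29736 bp, with 43878 bp after PHx and 8078 bp in sham. Ppard, the delta form of the PPAR family, was reached from 23037 bp, with 38728 bp after PHx and 18455 bp in sham. Each PHx library had 2 peaks at Nr3c1, and at Ppard library 1 had 1 and library 2 had 2. At all 4 the TSS was inside a region in both lists, and the block after PHx extended over distal sham regions. Of the 5 hepatocyte markers with a TSS, 4 were reached. Besides Hnf4a they were Apoa1 (20486 bp), Ttr (18918 bp) and Cebpa (4572 bp), which encode the main HDL apolipoprotein, transthyretin and a hepatocyte bZIP factor. The PHx region was 115827 bp at Apoa1, 41219 bp at Ttr and 63908 bp at Cebpa, where sham had 53592, 31068 and 44114 bp. At each of these 1 PHx library had 1 peak and the other several.

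Immediate early and stress-responsive genes were reached in 7 of 26 cases (26.9%, 11.6 to 47.8%). Zfp36l1 had a PHx region of 43149 bp and a sham region of 31889 bp, with a region absorbed from 29806 bp upstream, and the PHx region was merged from 1 peak of each library. Gadd45g, a growth arrest gene induced by stress, had 41877 bp after PHx and 5780 bp in sham, with a region of 10049 bp absorbed from 17989 bp downstream. Klf2, a Krüppel-like factor, had 66839 bp after PHx and 15473 bp in sham, and its absorbed region was itself 33088 bp wide. Btg1, an antiproliferative gene, had 17456 bp after PHx and 4508 bp in sham, with 2 regions absorbed, the farther of which had 23.0% of its length in the PHx region. The absorbed regions lay downstream of the TSS at Gadd45g, Klf2 and Btg1 and upstream at Zfp36l1. PHx library 1 had 1 peak at Gadd45g, Klf2 and Btg1, and library 2 had 2, 3 and 1.

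Cytokine signalling and acute phase genes were reached in 10 of 32 cases (31.2%, 16.1 to 50.01%), and they ran from receptor to feedback inhibitor. The receptor genes Il6ra, for interleukin-6, and Lifr, for leukaemia inhibitory factor, were reached from 21098 and 22801 bp. Il6ra had 33318 bp after PHx and 10656 bp in sham, and Lifr 48954 bp after PHx and 25440 bp in sham. Jak1 had 112577 bp after PHx (chr4:101012068-101124644) and 21045 bp in sham, with 2 regions absorbed from as far as 60856 bp downstream. Socs3, the feedback inhibitor of this pathway, lay in a PHx region of 95855 bp that the PHx table names for Mir6933, and its sham region measured 15412 bp. The farther of 2 absorbed regions, intergenic and 11292 bp wide in sham, lay 27856 bp downstream of Socs3. The PHx regions at Jak1 and Socs3 were each merged from 1 peak of PHx library 1 and 3 peaks of library 2. That at Lifr was merged from 1 peak of each, and that at Il6ra from 2 peaks of library 1 and 1 of library 2.

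Growth factors and their receptors were reached in 10 of 28 cases (35.7%, 18.6 to 55.9%), with several genes of the insulin and IGF pathway. Insr, the insulin receptor, had a PHx region of 80068 bp (chr8:3253354-3333421) and a sham region of 27701 bp, and 3 sham regions inside its introns and exons were absorbed from as far as 57011 bp. Irs2 had 96764 bp after PHx and 13831 bp in sham, with a region absorbed from 31789 bp. Igf1, insulin-like growth factor 1, had 75705 bp after PHx and 14075 bp in sham, and the region absorbed from 29277 bp measured 30687 bp and was named for the antisense gene Igf1os. Tgfa, which encodes an EGF receptor ligand, had 65560 bp after PHx and 3250 bp in sham, with 2 regions absorbed from as far as 21773 bp. All 4 extended downstream. The PHx region held 1 peak of each library at Igf1, and several in library 2 alone at Insr (3 peaks), Irs2 (6 peaks) and Tgfa (2 peaks).

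**Figure D5:**
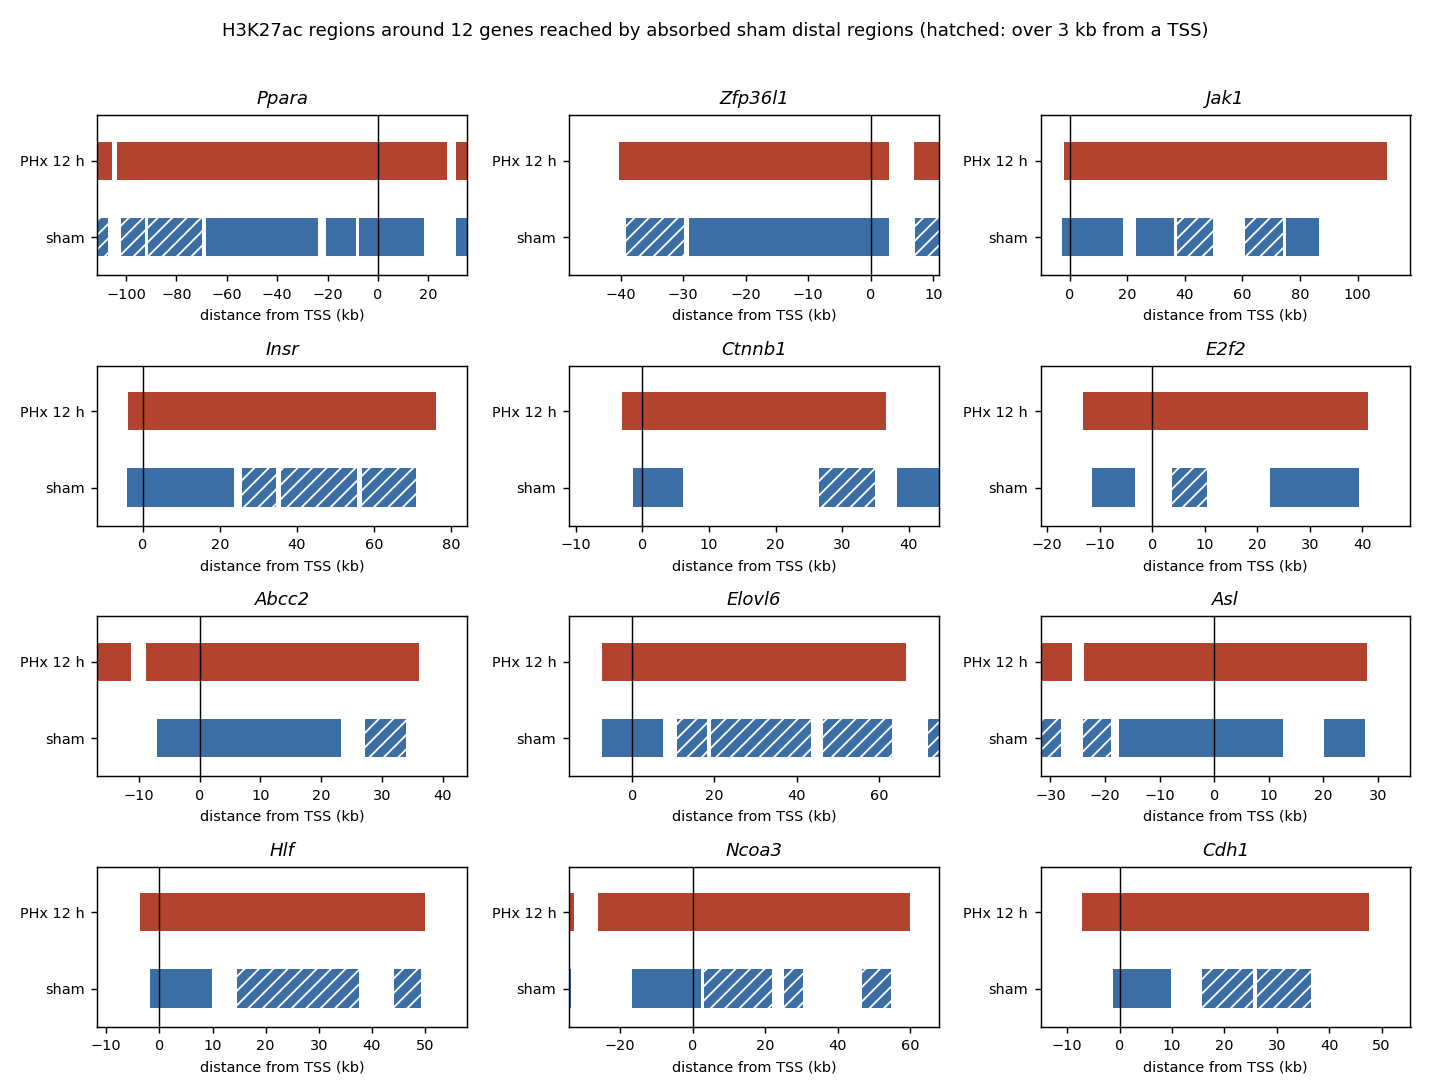
H3K27ac regions after PHx (red, upper row) and in sham (blue, lower row) around the TSS of 12 reached genes, with distance from the TSS in kb along the direction of transcription and the TSS as a vertical line. Hatched sham regions lay over 3 kb from a TSS in the sham table. In each panel 1 red block spans the TSS and at least 1 hatched region, with the farthest absorbed region 92403 bp from the TSS at Ppara and 3744 bp at E2f2.

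Wnt and Hippo pathway genes were reached in 5 of 20 cases (25%, 8.66 to 49.1%). Ctnnb1, which encodes beta-catenin, had 39559 bp after PHx and 7589 bp in sham, and was reached from 26484 bp downstream. Lrp5, a Wnt co-receptor, had 43129 bp after PHx and 22421 bp in sham. The transcription factors Tcf7 and Tcf7l1 had PHx regions of 39617 and 57960 bp and no sham region over the listed start inside them. Unused sham peaks of both libraries lay in the stretch around each, 73131 bp long at Tcf7 and 32187 bp at Tcf7l1. PHx library 1 had 1 peak at Ctnnb1, Lrp5, Tcf7 and Tcf7l1, and library 2 had 2, 1, 2 and 4. The starts meant at Tcf7, Tcf7l1, E2f2, Pfkfb3, Smarca4 and Hnf4a lay over 1000 bp from the RefSeq start, measured as for the promoters above. Those meant at Igf1, Lifr, Arid1a, Actn1, Cry2, Fmo5, Hlf and Mylk also lay over 1000 bp away. Values at all these starts do not describe the RefSeq promoter. Some named genes, among them Insr, could not be compared. Cell cycle and replication genes were reached in 1 of 19 cases (5.26%, 0.133 to 26.0%). The single case was E2f2, an E2F factor of the G1/S transition, with a PHx region of 54447 bp and a region absorbed from 3744 bp. No sham region lay over the nearest listed start, and an unused peak of sham library 2 lay in the stretch around it. PHx library 1 had 1 peak at E2f2 and library 2 had 2.

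Metabolic genes were reached at shares of 19.4 to 33.3%. For bile acid and xenobiotic genes it was 8 of 24 (33.3%, 15.6 to 55.3%). Abcc2, the canalicular exporter MRP2, had 44841 bp after PHx and 30234 bp in sham, and Abcc3, the basolateral exporter MRP3, 61049 bp after PHx and 28017 bp in sham. They were reached from 27194 and 26238 bp downstream. Cyp8b1, the sterol 12-hydroxylase of bile acid synthesis, was reached from 23110 bp downstream and Fmo5, a flavin monooxygenase, from 10014 bp upstream. For fatty acid and cholesterol genes it was 11 of 44 (25%, 13.2 to 40.3%), and these had wide blocks. Elovl6 had 74007 bp after PHx and 14959 bp in sham, with 3 regions absorbed from as far as 46344 bp. Dgat2, which makes triglycerides, had 84587 bp after PHx and 63756 bp in sham. The farther of its 2 absorbed regions, 38745 bp upstream, was named for the neighbour Mogat2. Fads2, the delta-6 desaturase, had 105377 bp after PHx and 19116 bp in sham. For glucose, amino acid and urea cycle genes it was 6 of 31 (19.4%, 7.45 to 37.5%). Asl, argininosuccinate lyase, and G6pc, glucose-6-phosphatase, were reached from 18941 and 12612 bp upstream and Got1, an aspartate aminotransferase, from 7247 bp downstream. Pfkfb3, which makes the activator of glycolysis fructose 2,6-bisphosphate, had a PHx region of 38190 bp and no sham region over the internal start it covers. No unused sham peak lay in the stretch of 15098 bp around that start. Each PHx library had 1 peak at Cyp8b1, G6pc, Got1 and Pfkfb3. At Abcc2, Abcc3, Fmo5, Elovl6, Dgat2, Fads2 and Asl, 1 library had 1 peak and the other several.

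Clock genes were reached in 2 of 12 cases (16.7%, 2.09 to 48.4%). Hlf, a PAR bZIP factor of clock output, had 53659 bp after PHx and 11807 bp in sham and was reached from 44156 bp, over nearly the whole gene to its 3' UTR. Cry2, a repressor of the clock loop, had 45406 bp after PHx and 18171 bp in sham and was reached from 10483 bp upstream. As time of day was not matched by the labels, its part here cannot be told apart from that of PHx. Chromatin enzymes and coregulators were reached in 5 of 22 cases (22.7%, 7.82 to 45.4%). Ncoa3, a coactivator of nuclear receptors, had 85923 bp after PHx and 18962 bp in sham, with 3 intronic regions absorbed from as far as 46546 bp. Arid1a and Smarca4, subunits of the SWI/SNF remodeller, had PHx regions of 61950 and 15562 bp. The sham region over the listed Arid1a TSS measured 12249 bp. The listed TSS of Smarca4 lay in no sham region, with no unused sham peak in a stretch of 24343 bp. Hdac4, a class IIa histone deacetylase, had 41840 bp after PHx and 6608 bp in sham. Cytoskeleton and adhesion genes were reached in 7 of 33 cases (21.2%, 8.98 to 38.9%). Cdh1, E-cadherin, had 54619 bp after PHx and 11068 bp in sham, Actn1, an actinin that crosslinks actin, 54946 bp after PHx and 4006 bp in sham, and Actb 40391 bp after PHx and 19265 bp in sham. Cldn1, a tight junction claudin, had 19521 bp after PHx and 9488 bp in sham. Each PHx library had 2 peaks at Ncoa3 and Cdh1 and 1 peak at Hdac4 and Smarca4. At Hlf, Cry2, Arid1a, Actn1, Actb and Cldn1, 1 library had 1 peak and the other several.

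Genes of other liver cells gave small counts, and the intervals of the endothelial, stellate and Kupffer cell lists included 16.3%. Endothelial genes were reached in 1 of 21 cases (4.76%, 0.120 to 23.8%), namely Icam2, an adhesion molecule of endothelium and leukocytes. Its PHx region measured 54908 bp, and the farther of 2 absorbed regions lay 34586 bp upstream. The TSS of Icam2 lay in no sham region, with the nearest 1087 bp away and an unused peak of sham library 1 in the stretch. Stellate cell and fibroblast genes were reached in 2 of 10 cases (20%, 2.52 to 55.6%). Mylk, myosin light chain kinase, had a PHx region of 82155 bp and a sham region of 14857 bp at an internal start of the gene, with 3 regions absorbed from as far as 61562 bp. Timp3, an inhibitor of metalloproteinases, had 22991 bp after PHx and no sham region over the TSS, with an unused peak of sham library 2 in the stretch. It was reached from 3059 bp upstream. Each PHx library had 2 peaks at Icam2 and 1 at Timp3, and at Mylk library 1 had 1 and library 2 had 3. Kupffer cell and macrophage genes were reached in 0 of 8 cases, which allows up to 36.9%, and the 1 cholangiocyte gene with a TSS was not reached. None of the 8 neutrophil, monocyte and lymphocyte genes in the list had a TSS in a PHx promoter region. Other genes of these cells were not counted. The part of changes in cell number was not tested.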

How the data were processed

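H3K27ac CUT&Tag was done on 4 liver libraries in 2 groups. Per the submitters' processing notes, the tools were Bowtie2, SEACR, ChIPseeker and DiffBind and the builds GRCm39 and mm39, with no version or role stated. Peak thresholds are not stated there. Other values deposited by the authors, per the file headers, are region start, end and width in bp, annotation class, gene, transcript and distance to the TSS, with the peak numbers of library 1 and library 2 that were merged. The tables hold 1 merged list per group. On every region the deposited distance was checked to be 0 where the region covers the TSS and otherwise the distance from its nearer edge.

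Python 3.11.15 with pandas 2.3.3, numpy 2.4.6, scipy 1.17.1 and matplotlib 3.10.9 was used. Regions overlapped when they shared at least 1 bp. The assignment was tested on simulated regions with known answers. A total of 19 lists with 579 genes and 22 pathways from a deposited column were counted. The set, the lists and the rules were chosen with earlier results of these data known, and the pathways after the tables were seen.

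Named genes were those with the 10 longest distances, the 5 PHx regions holding most absorbed regions, the 5 widest and 5 narrowest, the 3 on each side of the threshold, the 5 longest with a different and with the same gene, and up to 4 per list by distance. Predicted genes were counted and named only where needed, and 1 of the widest regions is not reported here. Promoters were taken in order of distance among listed genes, off chromosome 18. Genes with no entry in the promoter table were passed over (Insr, Ncoa3, Dgat2 and Icam2), as were those whose RefSeq start was over 1000 bp from the listed one (Mylk and Hlf), a step added after their values were seen. RefSeq names and biotypes are from GRCm38.p6. Sequences of the regions themselves, which need the GRCm39 genome, were not analysed here.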

Additional observations from a re-analysis of the deposited data

How the results depend on the processing

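No paired analysis was possible because each group has 1 merged list and no test was made. A library could not be left out in turn either, since the lists give no positions per library. The values given in the report were 1339 absorbed regions, 66.6% with the same gene, a median distance of 11033 bp, 1104 PHx regions, 78.1% with a sham promoter region and 27 regions with the tables exchanged. With distal set at over 10000 bp they were 537, 62.0%, 19595 bp, 440, 87.9% and 3. With PHx regions narrowed by 0.560, 649 regions, 72.1%, 8784 bp and 590 PHx regions were left. Requiring 1 peak in PHx library 1 gave 69.5%, 10178 bp and 74.8%. Requiring 1 peak in library 2 gave 646 regions, 74.0%, 8350 bp, 595 PHx regions and 66.7%. Requiring 1 peak in each gave 530 regions, 76.6%, 7436 bp, 502 PHx regions and 63.0%. With promoters within 1 kb only, 82.3% had a sham promoter region and the exchanged rule found 16. The other 19 of 44 values moved less than counting error or, for counts, by under 1.5 times, among them all those with 50% overlap required and with any number of overlapping PHx regions allowed. Under every setting with an exchanged count, PHx promoters absorbed more regions than sham promoters. No exchanged count was made with PHx regions narrowed or with 1 peak per library required. The part of the wider PHx regions in this direction was thus not tested. Depth is unknown, so a gap between sham regions cannot be told apart from signal under a caller's threshold.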

Other observations

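The pathway column of the deposited tables gave a further view of the absorbing PHx regions, 14.4% of all PHx promoter regions. Regions whose gene was assigned to adherens junctions absorbed a sham distal region in 12 of 41 cases (29.3%, 16.1 to 45.5%), bile secretion in 11 of 38 (28.9%, 15.4 to 45.9%), TGF-beta signalling in 9 of 32 (28.1%, 13.7 to 46.7%), MAPK signalling in 23 of 107 (21.5%, 14.1 to 30.5%) and AMPK signalling in 16 of 75 (21.3%, 12.7 to 32.3%). Lower shares were found for the spliceosome, with 0 of 38, which allows up to 9.25%, the proteasome with 0 of 16, oxidative phosphorylation with 3 of 49 (6.12%, 1.28 to 16.9%), the cell cycle with 3 of 43 (6.98%) and JAK-STAT signalling with 6 of 56 (10.7%). Insulin signalling stood at 11 of 71 (15.5%). The pathways were not tested, overlap in genes and were looked up after the tables were seen. Regions whose gene had a transcription factor family in the tables absorbed one in 58 of 354 cases (16.4%). Among these, chosen after their values were seen, were Foxo1, the forkhead factor of insulin signalling (45956 bp, in a PHx region of 65394 bp), and Ets1, an ETS factor (29642 bp, in 74305 bp).

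Absorbing regions were named for a protein-coding gene in 660 of 1067 cases matched to RefSeq names (61.9%) and for a long non-coding RNA in 325 (30.5%), against 4669 (72.5%) and 1434 (22.3%) of 6441 other PHx promoter regions. Wide regions can hold several starts, and the table names 1. By chromosome, the share of sham distal regions absorbed ran from 28.0% (47 of 168) on chromosome 17 to 48.3% (102 of 211) on chromosome 8 among the autosomes, and 2 of 6 were absorbed on X. A comparison of promoter sequence between absorbing and other PHx regions is void, since 70.9% and 73.2% of their genes had a RefSeq promoter entry, under the 80% taken as the least.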
